A study of Mus musculus with 24 samples.

Results

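The genes of MHC class II antigen presentation were followed across mouse intestine and intestinal organoids. The set comprised 7 genes, which were H2-Aa, H2-Ab1, H2-Eb1, Cd74, H2-DMa, H2-DMb1 and Ciita, and a gene counted as measured where a probe set named it alone. By that rule 6 of the 7 were measured, each by 1 probe set, among 30707 genes of the array. The probe set for Cd74, the invariant chain, also names another gene, and Cd74 was left out.

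MHC class II molecules are pairs of an alpha and a beta chain that carry peptides from internalised proteins to the cell surface, where CD4 T cells read them. The new pair is held by the invariant chain, whose remnant in the groove is exchanged for peptide in endosomes by the factor H2-DM. Transcription of the chain genes and of H2-DM depends on the coactivator Ciita, which interferon gamma can induce. Dendritic cells, macrophages and B cells hold class II constitutively, and intestinal epithelial cells can also carry it.

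RNA was measured on 24 single-colour Affymetrix arrays in 6 groups of 4. The groups were organoids from E19 fetal intestine after 3 and after 30 days of culture, organoids from adult intestine after 3 and after 30 days, P0 intestine, taken at birth, and adult intestine. Organoids are epithelial cultures grown from intestinal cells, here in ENR medium, the usual mix of EGF, Noggin and R-spondin. The labels give no strain, sex, intestinal segment or treatment, and no statement on whether replicates were separate animals or cultures, so that p-values measure only the spread between these arrays, which may be technical. Of the epithelial markers 7 of 7, among them villin and keratins, lay above the negative control median on every array, but so did 7 of 7 mesenchymal and 8 of 8 macrophage markers on every day 3 fetal organoid and P0 array, so that this bar does not tell cell types apart. Day 3 fetal organoid arrays 2 and 3 stood apart, with the stomach transcripts Gkn1, Gkn2 and Cldn18 at 10.15 to 10.61. These transcripts lay at 6.63 to 7.66 on array 1, 4.45 to 5.87 on array 4 and 3.23 to 5.67 in the other groups. Array 1 was thus raised too, to a lesser degree. Results for the members and the fetal culture changes are given without arrays 2 and 3 too, which leaves array 1 in. These stomach genes were chosen after their values had been seen.

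Levels are RMA values on the log2 scale, on which a step of 1 is 2-fold, and a level is not comparable between genes because probes differ. The median of all genes lay between 5.0 and 5.22 on the 24 arrays, and the median of 5222 negative control probe sets between 3.84 and 4.61. The 95th percentile of the negative controls lay between 7.27 and 8.06. In organoids every member lay below that percentile on every array. Levels of H2-Aa in organoids, and of H2-DMb1 and Ciita in organoids and at P0, lay close to the negative control median. A difference from such a group may be understated. The 4 arrays of a group limit the precision. Differences below are of group means ± SE (n = 4 arrays a group), tested with limma with Benjamini-Hochberg adjustment over all 30707 genes. Calls were made where the adjusted p was under 0.05. The SE rests on a gene's spread pooled over all groups, so 1 group with a wide spread enlarges it in every comparison. In bulk RNA a difference in the number of cells of a type and a difference in RNA per cell cannot be told apart.

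The start-site windows of the members show which of them carry the letters that Ciita-dependent promoters are known for, the X box bound by RFX, the X2 box bound by CREB and the Y box bound by NF-Y. RefSeq windows on GRCm38.p6 were at hand for 4 of the 7 members, and the 150 bases before the start are printed 5′ to 3′ on the gene's strand for all 4. Capitals mark exact matches to GNAACNGAT (X box core), TGACGTCA (the X2 element) or GATTGG (Y box core, CCAATC on the other strand).
H2-Aa, chr17:34287824-34287973, minus strand: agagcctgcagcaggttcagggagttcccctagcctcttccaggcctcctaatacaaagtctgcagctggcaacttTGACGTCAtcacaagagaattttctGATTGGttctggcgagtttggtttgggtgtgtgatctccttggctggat
H2-Eb1, chr17:34305717-34305866, plus strand: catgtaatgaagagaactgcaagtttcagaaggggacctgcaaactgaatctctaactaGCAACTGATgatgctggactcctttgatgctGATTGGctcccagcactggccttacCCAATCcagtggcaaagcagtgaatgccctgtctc
H2-DMb1, chr17:34153041-34153190, plus strand: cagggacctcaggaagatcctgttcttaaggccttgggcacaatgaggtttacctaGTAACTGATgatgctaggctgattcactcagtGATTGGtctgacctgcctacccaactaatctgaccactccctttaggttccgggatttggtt
H2-DMa, the first of 2 listed starts, chr17:34122682-34122831, plus strand: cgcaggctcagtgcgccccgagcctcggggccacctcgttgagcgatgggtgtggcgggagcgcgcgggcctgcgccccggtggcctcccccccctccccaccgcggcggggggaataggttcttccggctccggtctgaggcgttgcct
In H2-Eb1 the X core was followed by the Y core after 22 bases, and in H2-DMb1 after 23 bases. In H2-Aa the X2 element stood 17 bases before the Y core. The window of the first H2-DMa start had no match, and 76.0% of its bases were G or C, while that of the second listed start held the Y core 199 to 194 bases before it. Among 32851 start-site windows of 250 bases, 576 (1.753%) held the X core on either strand, 508 (1.546%) the X2 element and 4783 (14.56%) the Y core, while 90 (0.274%) held both X and Y cores. Of the other class II chains with a window, H2-Eb2 had both cores, 22 bases apart. H2-DMb2, H2-Oa and H2-Ob had the Y core as their only exact match. An X box with a differing letter would be missed, so this does not show that they lack one. The letters were chosen after the windows had been read, and a match is a description, not a measured site.

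Adult intestine held the highest level of all 6 measured members. H2-Ab1, the beta chain of I-A, read 10.57, 9.82, 10.01 and 9.72 on the 4 adult intestine arrays and 7.27, 7.62, 7.12 and 6.96 at P0. In organoids from adult intestine it read 6.90, 6.23, 7.23 and 6.06 at day 3 and 5.95, 5.90, 6.06 and 5.84 at day 30. In fetal organoids it read 5.96, 5.68, 5.78 and 6.03 at day 3 and 5.75, 5.70, 6.04 and 5.68 at day 30. Adult intestine was clear of all other arrays, P0 arrays overlapped the adult day 3 organoids, and the other 3 organoid groups overlapped each other.

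H2-Aa, the alpha chain of I-A, read 7.84, 6.93, 6.85 and 6.23 in adult intestine and 5.26, 5.57, 5.10 and 5.16 at P0. Adult organoids read 5.02, 4.35, 5.14 and 4.48 at day 3 and 4.33, 4.24, 4.30 and 4.42 at day 30. Fetal organoids read 4.54, 4.57, 4.28 and 4.62 at day 3 and 4.19, 4.24, 4.18 and 4.27 at day 30. The tissues did not overlap, and the fetal and the adult day 30 organoids lay near the negative control medians.

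H2-Eb1, the beta chain of I-E, read 9.81, 8.43, 8.74 and 8.99 in adult intestine and 6.27, 6.37, 6.20 and 6.21 at P0. Adult organoids read 6.27, 5.57, 6.12 and 5.53 at day 3 and 5.61, 5.44, 5.46 and 5.37 at day 30. Fetal organoids read 5.57, 5.39, 5.56 and 5.72 at day 3 and 5.41, 5.47, 5.40 and 5.44 at day 30. Day 3 adult organoid arrays 1 and 3 lay near the P0 level and arrays 2 and 4 near the other organoids. The probe set taken for H2-Ea, the alpha chain of I-E, is listed on the array as H2-Ea-ps. It lay below the negative control median on all 24 arrays, with group means from 3.19 at P0 to 3.41 in fetal day 3 organoids. Some mouse haplotypes do not express H2-Ea, and the labels give no haplotype.

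H2-DMb1, a chain of the peptide exchange factor, read 9.09, 7.20, 7.88 and 6.98 in adult intestine and 5.01, 5.12, 5.08 and 4.98 at P0. Adult organoids read 4.94, 4.72, 5.13 and 4.64 at day 3 and 4.86, 4.50, 4.33 and 4.42 at day 30. Fetal organoids read 4.58, 4.48, 4.55 and 4.65 at day 3 and 4.25, 4.50, 4.31 and 4.32 at day 30. Only adult intestine was clear of every other group. H2-DMb1 has a near-identical neighbour, H2-DMb2, and signal shared between their probe sets was not tested.

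H2-DMa, the partner chain of the factor, had another order. It read 7.98, 7.66, 7.86 and 7.58 in adult intestine and 6.32, 6.62, 6.55 and 6.37 at P0, where the group mean was lowest but level with that of day 3 fetal organoids (6.46 against 6.48). Adult organoids read 6.97, 6.68, 7.10 and 6.94 at day 3 and 6.95, 7.06, 6.50 and 7.07 at day 30. Fetal organoids read 6.62, 6.41, 6.36 and 6.52 at day 3 and 6.96, 7.10, 6.88 and 6.25 at day 30. Day 3 adult organoids lay above every P0 array, unlike the chain genes, whose mean was higher at P0 than in any organoid group.

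Ciita, the coactivator, read 6.19, 6.06, 5.91 and 6.01 in adult intestine and 4.68, 5.01, 4.77 and 4.87 at P0. Its organoid arrays spanned 4.59 to 5.07 and overlapped P0 in all 4 organoid groups. The span between the highest and lowest organoid group mean was 0.19 for Ciita, against 0.44 to 0.81 for the other 5 members.

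**Figure D1:**
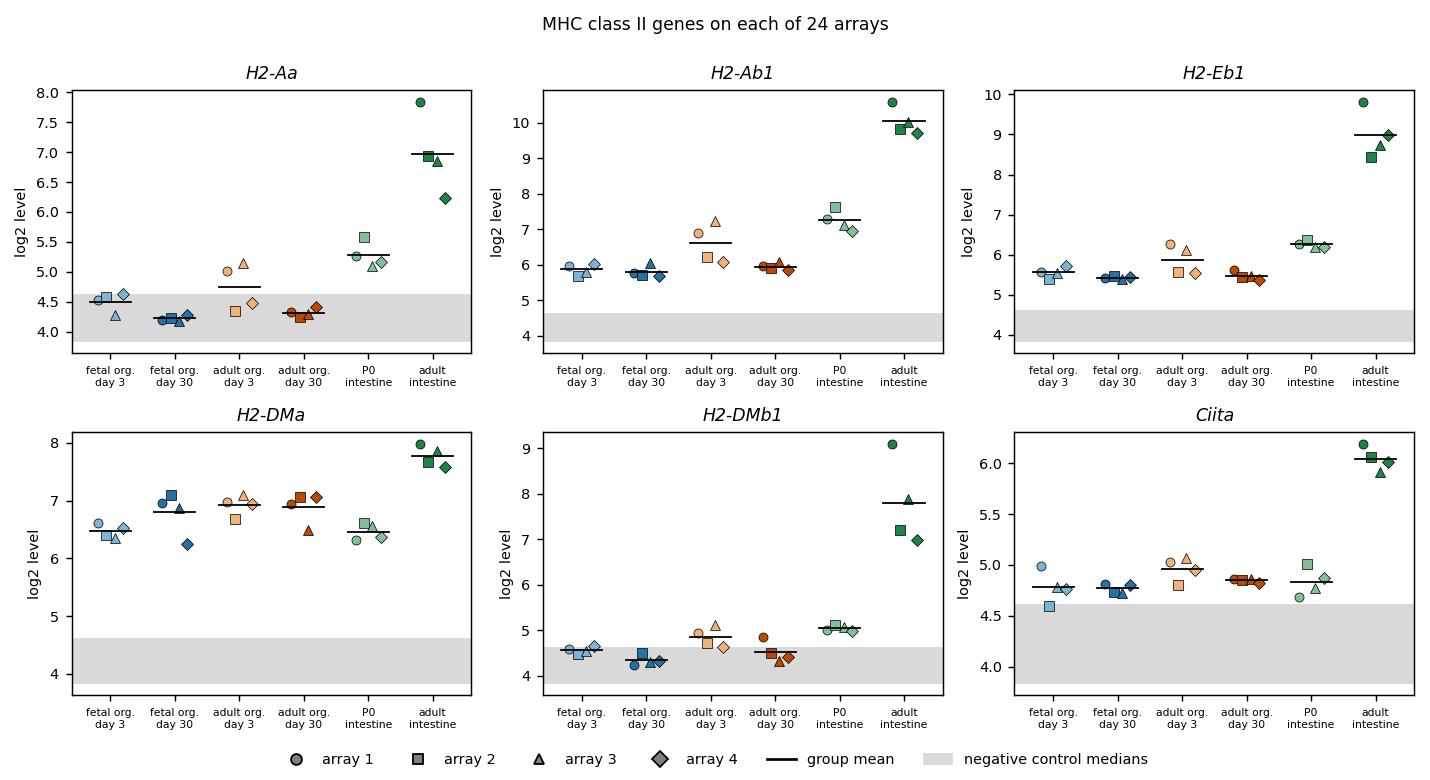
Log2 level (vertical axis) of each measured MHC class II gene on the 24 arrays by group, with the group mean as a line, array number by symbol and the range of the negative control medians (3.84 to 4.61) in grey. Adult intestine stands above every other array for all 6 genes, with array 1 at its top.

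In the order of group means, adult intestine differed from the next group for all 6 members (adjusted p from 1.5e-10 for H2-Eb1 to 9.1e-05 for H2-DMa). Of the other 24 neighbouring pairs in these orders, 1 was called, H2-Ab1 at P0 above adult day 3 organoids by 0.64 (limma adjusted p 0.015). For H2-Aa, P0 lay 0.52 above adult day 3 organoids with an adjusted p of 0.054.

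From P0 to adult intestine all 6 members rose, with no overlap between arrays. Of all genes 15% were called higher, and 17.2% were higher with no overlap. H2-Ab1 was higher by 2.79 ± 0.21, or 6.91-fold (adjusted p 2.9e-10), and H2-Eb1 by 2.73 ± 0.19, or 6.66-fold (adjusted p 1.5e-10). H2-Aa was higher by 1.69 ± 0.22, or 3.23-fold (adjusted p 2e-06). The chains of the exchange factor differed in size, with 2.74 ± 0.27 for H2-DMb1 (adjusted p 2.9e-08) and 1.31 ± 0.15 for H2-DMa (adjusted p 5.1e-07). Ciita rose by 1.21 ± 0.08, or 2.31-fold (adjusted p 1.1e-10). The median of the 6 differences was 2.21, beside 0.08 for all genes.

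Within adult intestine, array 1 was the highest of the 4 for 6 of 6 members, and their mean level there was 8.58 against 7.58 to 7.88 on the other 3. On the same array 4 of 5 leukocyte, 5 of 6 T cell, 7 of 8 macrophage, 6 of 8 dendritic cell, 5 of 7 B cell and 2 of 2 plasma cell markers were at their lowest of the 4 arrays, and 6 of 7 epithelial markers at their highest. The mean of the T cell list was 4.96 on array 1 and 5.30 to 5.71 on the others, and that of the macrophage list 6.13 against 6.47 to 6.80. Array 4 was the reverse, lowest for 4 of 6 members and highest for 6 of 6 T cell, 7 of 7 B cell, 7 of 8 macrophage and 6 of 8 dendritic cell markers. Array 1 also had the highest negative control median, 4.61, and the lowest area under the curve for the separation of positive and negative controls, 0.865. The median of all genes was 5.03 on array 1 and 5.21 on array 4, with 5.09 and 5.07 on arrays 2 and 3. Shares of all genes highest or lowest on an array were not computed. The part of these array-wide values in the spread of members and markers was not tested. Nor was that of the cell types in the members' spread. Without array 1 all 6 stayed higher in adult than P0 intestine, by 1.40 for H2-Aa, 2.61 for H2-Ab1, 2.46 for H2-Eb1, 1.24 for H2-DMa, 2.31 for H2-DMb1 and 1.16 for Ciita.

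Markers of other cell types also differed between the tissues. Adult intestine was higher for 5 of 5 leukocyte, 6 of 6 T cell, 5 of 7 B cell, 2 of 2 plasma cell and 5 of 8 dendritic cell markers. The B cell list had 2 of 7 genes above the negative control median on each P0 array and 3 to 4 on each adult array. Of 8 macrophage markers 1 was higher and 1 lower, with list means of 6.45 to 6.67 at P0 and 6.13 to 6.80 in adult intestine. The epithelial list had 6 of 7 higher. Mesenchymal markers were lower in adult intestine for 6 of 7 genes (median difference -1.43) and endothelial markers for 4 of 4 (median -1.56). The part of these cell types in the rise of the members was not tested.

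**Figure D2:**
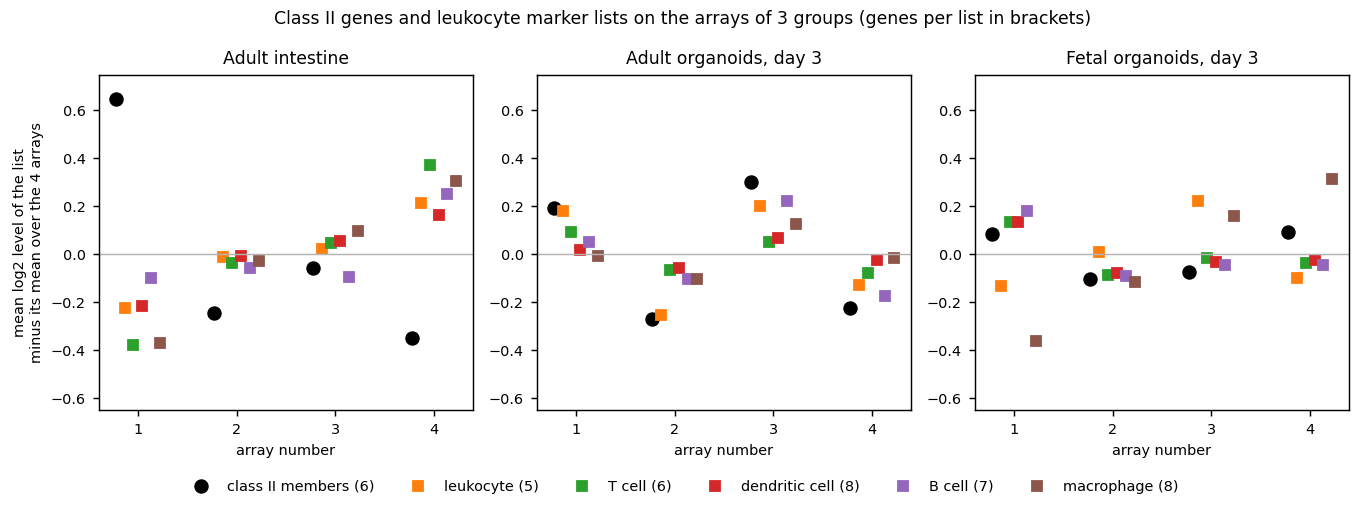
Mean log2 level of each gene list on each array minus its mean over the 4 arrays of the group (vertical axis), by array number, for adult intestine, day 3 adult organoids and day 3 fetal organoids, with black circles for the 6 class II genes and squares for leukocyte marker lists. In adult intestine array 1 is highest for class II and lowest for each of the 5 marker lists shown, and in day 3 adult organoids arrays 1 and 3 are above arrays 2 and 4 for class II.

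Other genes of the class II pathway differed in direction from P0 to adult intestine. Of 5 other chains 4 rose, among them H2-DMb2 by 1.38 ± 0.11 (adjusted p 1.7e-09), which read 6.85, 6.28, 6.39 and 6.22 in adult intestine and 4.94 to 5.13 at P0. H2-Oa, a chain of the exchange factor's inhibitor, rose by 0.58 ± 0.12 (adjusted p 0.001). Among the 5, H2-Ob and H2-Ea lay above the negative control median on 0 of the 8 tissue arrays, H2-Eb2 on 1 and H2-Oa on 4. Endosomal processing and turnover went largely the other way, with 2 of 10 higher and 5 lower, beside 12.2% of all genes called lower. Cathepsin L (Ctsl), which trims the invariant chain in thymic epithelium, read 6.35, 6.88, 6.78 and 6.83 in adult intestine and 10.04, 10.31, 10.22 and 9.90 at P0 and fell by 3.41 ± 0.21 (adjusted p 1.6e-11). Legumain (Lgmn), an asparaginyl endopeptidase, was lower by 2.72 ± 0.20 (adjusted p 3.7e-10). The thiol reductase Ifi30 was lower by 0.67 ± 0.07 (adjusted p 1.5e-07). Cathepsin S (Ctss), which trims the invariant chain in antigen-presenting cells, was 8.78 in adult intestine and 8.79 at P0, a difference of -0.02 (95% interval -0.36 to 0.33, adjusted p 0.95). The 2 called higher were the ubiquitin ligase genes Marchf8, by 0.24 (adjusted p 0.018), and Marchf1, which lay above the negative control median on 1 of the 8 tissue arrays. The falls of Ctsl and Lgmn moved with the lower mesenchymal and endothelial markers of adult intestine, whose part in them was not tested.

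Of 7 factors that bind class II promoters 1 was called from P0 to adult intestine. Rfxank, an RFX subunit, was higher in adult intestine by 0.38 ± 0.13 (adjusted p 0.029), and the other 6 differed by -0.18 to 0.18 without passing the test. Of 7 genes of interferon gamma signalling 5 rose, led by the transcription factor Irf1 with 1.38 ± 0.13 (adjusted p 1.8e-08) and the kinase Jak2 with 0.89 ± 0.16 (adjusted p 0.00015). The transcript of interferon gamma itself, Ifng, lay below the negative control median on every array. Of 8 genes that interferon gamma induces 6 rose, of which Iigp1 lay above the negative control median on 3 of the 8 tissue arrays and Cxcl10 on 2. The GTPase Igtp read 8.26, 8.24, 8.24 and 8.05 in adult intestine and 5.88 to 6.70 at P0, a rise of 1.94 ± 0.18 (adjusted p 9e-09). The chemokine Cxcl9 rose by 2.56 ± 0.12 (adjusted p 8.4e-14), from a level below the negative control median at P0. The GTPases Gbp3 and Gbp7 differed by 0.02 and -0.01. Of 6 costimulation genes 3 rose, among them Cd274, the ligand PD-L1, by 1.02 ± 0.12 (adjusted p 3.4e-07).

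**Figure D3:**
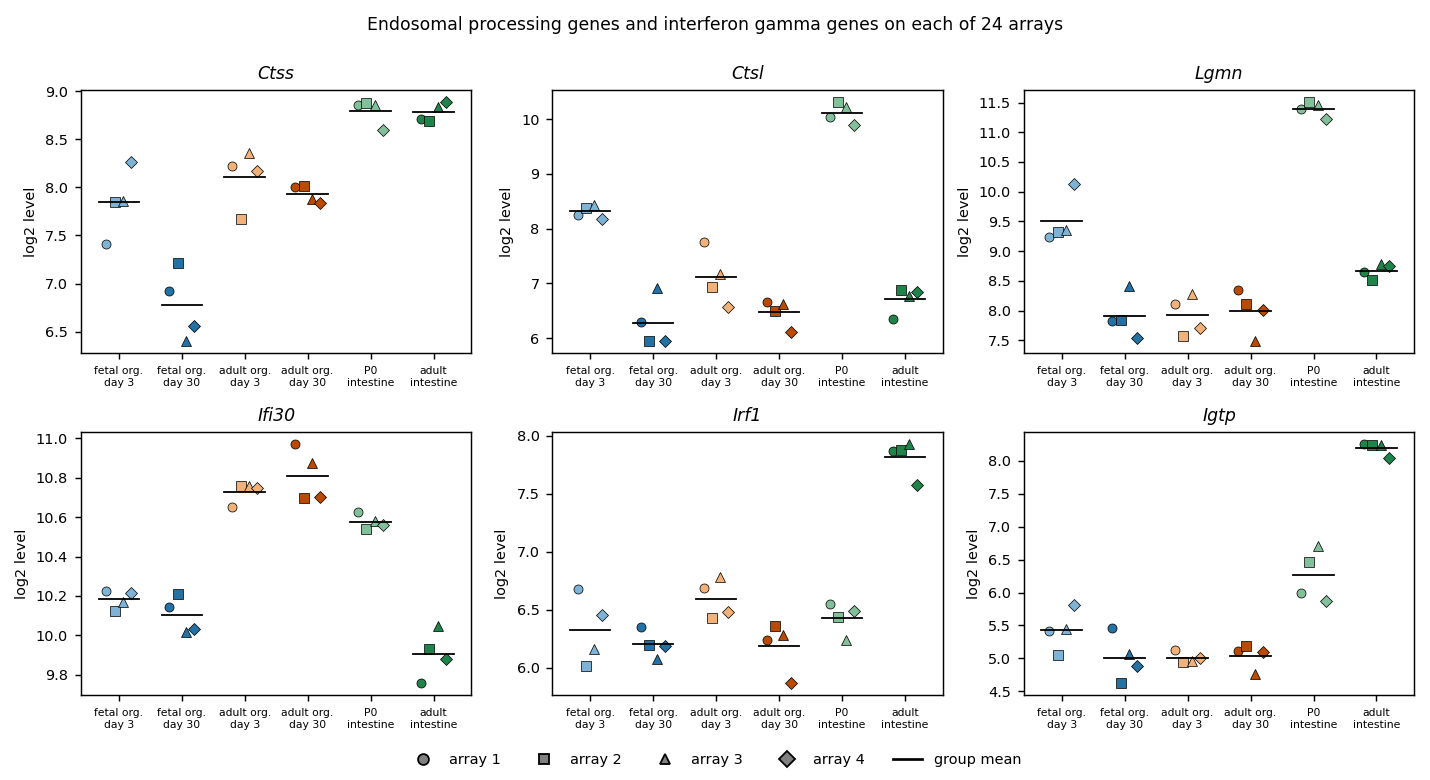
Log2 level (vertical axis) of 4 endosomal processing genes and 2 interferon gamma genes on the 24 arrays by group, with group means as lines. Ctsl and Lgmn are highest at P0, Irf1 and Igtp are highest in adult intestine, and the Ctss means are 8.79 at P0 and 8.78 in adult intestine.

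Organoids from adult intestine were set against adult intestine. The labels give no intestinal segment, so a shared source of the organoids and the tissue is not established. At day 3 all 6 members were lower than in adult intestine with no overlap. Of all genes 13.5% were called lower, and 13.2% were lower with no overlap. H2-Ab1 was lower by 3.42 ± 0.21 (adjusted p 1.1e-11), so that adult intestine was 10.7-fold higher. H2-Eb1 fell by 3.12 ± 0.19 (adjusted p 1.9e-11) and H2-Aa by 2.21 ± 0.22 (adjusted p 2e-08). H2-DMb1 fell by 2.93 ± 0.27 (adjusted p 6.4e-09), H2-DMa by 0.85 ± 0.15 (adjusted p 9.1e-05) and Ciita by 1.08 ± 0.08 (adjusted p 6.1e-10).

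At day 30 all 6 were again lower than in adult intestine, with 15.1% of all genes called lower. Adult intestine was 17.1-fold above them for H2-Ab1, 11.5-fold for H2-Eb1 and 6.25-fold for H2-Aa, and 2.29-fold for Ciita. Fetal organoids at day 30 were lower than adult intestine for all 6 too (14.6% of all genes called lower), by 4.24 ± 0.21 for H2-Ab1 and 1.27 ± 0.08 for Ciita (adjusted p 2.4e-13 and 6.3e-11). These 3 comparisons and that of P0 with adult intestine share the adult intestine arrays. Leukocyte markers were lower in day 3 adult organoids for 5 of 5 general, 5 of 6 T cell, 7 of 8 macrophage and 6 of 8 dendritic cell genes, and 0 of 7 B cell markers were called. Only 3 to 4 of the 7 B cell markers lay above the negative control median on any array of these 2 groups. Mesenchymal markers were lower for 7 of 7 genes, endothelial for 4 of 4 and plasma cell for 2 of 2. The part of these cell types in the members' fall was not tested.

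Other genes of the pathway were lower in the day 3 adult organoids less uniformly. Of all genes 21.9% were called higher there. Of 8 interferon gamma induced genes 7 were lower, Igtp by 3.19 ± 0.18 (adjusted p 2.5e-12) and Gbp7 by 2.31 ± 0.16 (adjusted p 7e-11). Irf1 was lower by 1.22 ± 0.13 and Jak2 by 1.09 ± 0.16 (adjusted p 7.8e-08 and 5.9e-06), among 4 of 7 signalling genes. Of the promoter factors 2 were higher and 1 lower, with Nfyb, an NF-Y subunit, higher by 0.63 ± 0.08 (adjusted p 2.2e-06). Of 10 processing genes 3 were higher, among them Ifi30 by 0.83 ± 0.07 (adjusted p 3.6e-09), and 6 lower, among them Ctss by 0.67 ± 0.17 (adjusted p 0.0023). Without day 3 arrays 1 and 3, 2 processing genes and 1 promoter factor were called higher.

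Fetal organoids at day 3 were compared with P0 intestine, a tissue close to theirs in age but not the same stage. The 3 chain genes were lower, with 13.8% of all genes called lower. H2-Ab1 fell by 1.38 ± 0.21 (adjusted p 1.4e-05), H2-Aa by 0.77 ± 0.22 (adjusted p 0.0066) and H2-Eb1 by 0.70 ± 0.19 (adjusted p 0.0058). H2-DMb1 differed by -0.48 ± 0.27 with no overlap of arrays, yet did not pass the test (adjusted p 0.15). Its pooled SE includes adult intestine, with an SD of 0.95, against 0.07 in these organoids and 0.06 at P0. With only the compared groups fitted, H2-DMb1 was called (SE 0.08, limma adjusted p 0.00075). H2-DMa differed by 0.01 (95% interval -0.30 to 0.33) and Ciita by -0.05 (95% interval -0.23 to 0.12). Without fetal day 3 arrays 2 and 3, the arrays with the highest stomach transcripts, H2-Ab1 alone was called. H2-Aa was then at -0.69 (adjusted p 0.051) and H2-Eb1 at -0.61 (adjusted p 0.054). Mesenchymal markers were lower in these organoids for 7 of 7 genes (median -1.57) and endothelial for 4 of 4 (median -2.37), both also without arrays 2 and 3. Of the macrophage markers 2 of 8 were higher and 2 lower, of the leukocyte markers 1 of 5 each way, and 4 of 7 B cell markers were higher. The B cell list lay near the negative controls, with 2 of 7 genes above their median on each P0 array and 4 of 7 on each of these organoid arrays. The median difference of all genes was 0.14. The part of these cell types in the lower chain genes was not tested.

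The difference between adult and fetal organoids was small beside that between the tissues. At day 3 adult organoids were higher for H2-Ab1 by 0.74 ± 0.21 (adjusted p 0.0098) and for H2-DMa by 0.45 ± 0.15 (adjusted p 0.035), 2 of 6 members, with 14.5% of all genes called higher. The other 4 differed by 0.18 to 0.31. Without array 3 of the adult day 3 organoids neither was called (H2-Ab1 0.53, adjusted p 0.051). H2-DMa alone also lost its call without adult array 1 or 4, or fetal array 2, 3 or 4, each in turn, and without fetal array 1 Ciita was called too, 3 of 6. With fetal arrays 2 and 3 both left out 0 members were called, with H2-Ab1 at 0.61 and H2-DMa at 0.35 (adjusted p 0.11 and 0.22).

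The 4 adult day 3 arrays fell apart for these genes. Arrays 1 and 3 were above arrays 2 and 4 for 6 of 6 members and 5 of 5 leukocyte markers. The same held for 5 of 7 B cell, 4 of 6 T cell, 3 of 8 macrophage and 3 of 8 dendritic cell markers. It held for 3 of 7 epithelial, 3 of 7 mesenchymal, 2 of 4 endothelial and 1 of 2 plasma cell markers. Among pathway genes it held for 4 of 5 other class II chains, 7 of 10 processing genes and 0 of 7 promoter factors. It held too for 4 of 7 interferon gamma signalling, 4 of 8 interferon gamma induced and 4 of 6 costimulation genes. The split was chosen after the values were seen, and its share over all genes was not computed. It is thus not shown to be particular to any of these lists. Array 1 was also the highest of the 4 for 7 of 7 mesenchymal markers, with a list mean of 6.41 against 5.10 to 5.17 on the others. Jchain, the joining chain of plasma cells, read 4.20 and 4.82 on arrays 1 and 3 and 3.38 and 3.51 on arrays 2 and 4. The part of such cells in the members' levels was not tested. Leaving out arrays 1 and 3, the higher ones for the members, had to lower the adult minus fetal difference. Without them it was 0.28 for H2-Ab1 (adjusted p 0.35), 0.33 for H2-DMa (adjusted p 0.25), -0.09 for H2-Aa and -0.01 for H2-Eb1.

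At day 30, 0 of 6 members were called between adult and fetal organoids in limma, and 0 at an unadjusted p under 0.05, with 6.8% of all genes called higher and 2.17% lower. The differences were 0.04 to 0.18, and the 95% interval, from the pooled spread, was -0.28 to 0.57 for H2-Ab1 and -0.09 to 0.26 for Ciita. The Ciita arrays did not overlap, at 4.83 to 4.87 in adult and 4.73 to 4.81 in fetal organoids.

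The gap between adult and young was larger in tissue than in day 3 organoids for all 6 members, by the test of the difference between the gaps, which called 13% of all genes higher. The excess was 2.45 ± 0.38 for H2-DMb1 (adjusted p 5e-05), 2.42 ± 0.27 for H2-Eb1 (adjusted p 1e-06) and 2.05 ± 0.29 for H2-Ab1 (adjusted p 2e-05). It was 1.44 ± 0.31 for H2-Aa (adjusted p 0.0013), 1.03 ± 0.12 for Ciita (adjusted p 1.4e-06) and 0.86 ± 0.22 for H2-DMa (adjusted p 0.005). For H2-Aa, H2-DMb1 and Ciita both day 3 organoid groups lay near the negative control median. Their organoid gap may therefore be understated and the excess overstated. For H2-DMb1 and Ciita, near that median at P0 too, the gap in tissue may also be understated. The young stages differ, E19 for the organoids and P0 for the tissue. All 6 were also called without fetal arrays 2 and 3. They were called too without adult organoid arrays 1 and 3, a choice that by itself had to enlarge the excess.

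**Figure D4:**
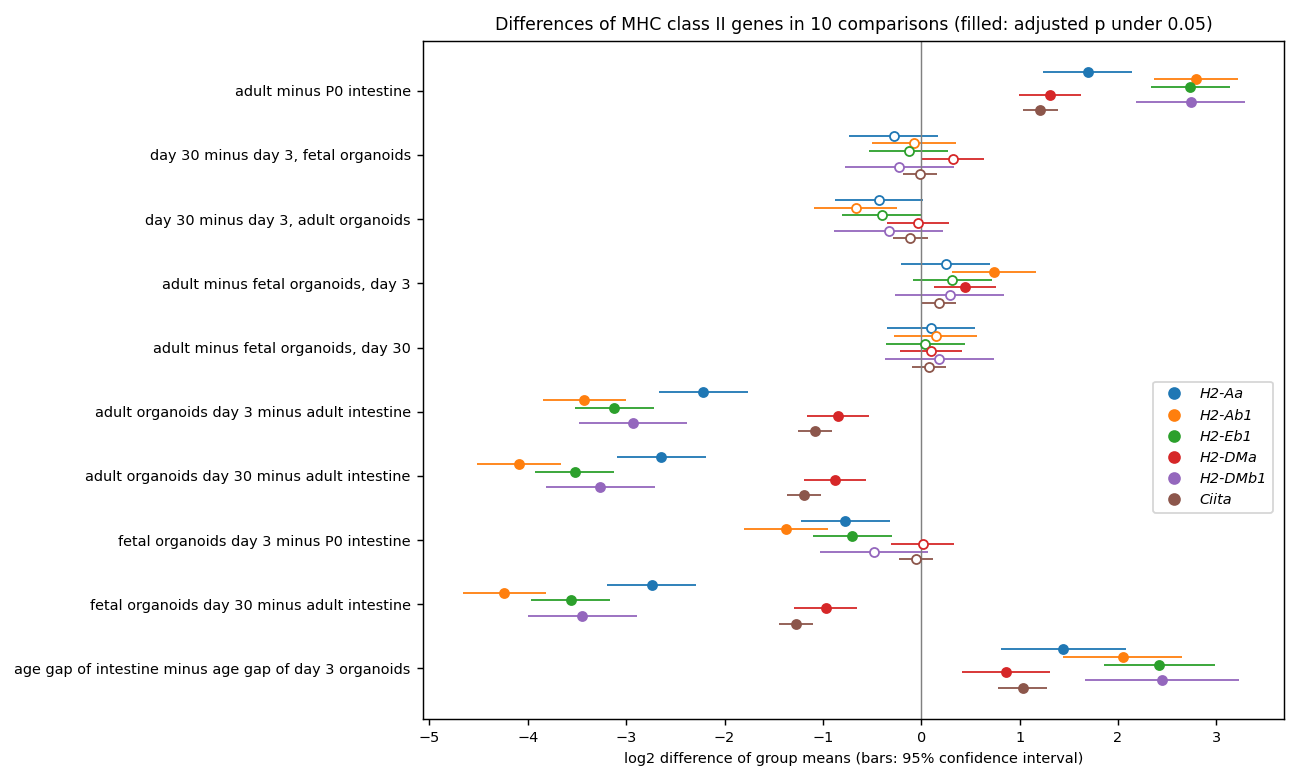
Log2 difference of group means (horizontal axis) of the 6 genes in 10 comparisons, with bars for the 95% confidence interval and filled points for an adjusted p under 0.05. All 6 genes lie right of 0 for adult minus P0 intestine and left of 0 for the 3 comparisons of organoids with adult intestine, and the differences within organoids lie between -0.67 and 0.74.

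Time in culture was not followed by a called change of any member. In fetal organoids from day 3 to day 30, 0 of 6 were called in limma and 1 had an unadjusted p under 0.05, while 6.78% of all genes were called higher and 8.76% lower. H2-DMa differed by 0.32 ± 0.15 (adjusted p 0.17) and the other 5 by -0.28 to -0.01. The H2-Aa arrays did not overlap, at 4.28 to 4.62 at day 3 and 4.18 to 4.27 at day 30, near the negative control median. Without day 3 arrays 2 and 3, 0 were called. Without fetal day 30 array 4, on which H2-DMa was lowest, H2-DMa was called, by 0.51 (adjusted p 0.011). Over the same days 7 of 8 macrophage markers fell, from list means of 5.83 to 6.50 at day 3 to 5.08 to 5.24 at day 30, and 4 of 5 leukocyte markers fell. The macrophage gene Adgre1 read 4.46, 5.94, 5.27 and 5.66 at day 3 and 3.88 to 3.99 at day 30.

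Several pathway genes did fall in fetal organoids over that time. Of 10 processing genes 7 fell and 1, Cd83, rose. Ctsl read 8.25, 8.39, 8.43 and 8.18 at day 3 and 6.29, 5.94, 6.92 and 5.94 at day 30, a fall by 2.04 ± 0.21 (adjusted p 5.2e-07). Lgmn fell by 1.60 ± 0.20 (adjusted p 7.9e-06) and Ctss by 1.07 ± 0.17 (adjusted p 8.5e-05). Gbp7 fell by 1.10 ± 0.16 (adjusted p 3.1e-05), among 4 of 8 interferon gamma induced genes. Of the costimulation genes 3 of 6 fell, Cd86 by 0.81 ± 0.15 (adjusted p 0.00058), and Icosl rose. Cd86 lay above the negative control median on 2 of 4 arrays at day 3 and 0 of 4 at day 30. Without day 3 arrays 2 and 3, 4 of 10 processing genes fell and Cd83 and Icosl were no longer called. Ctsl (-1.95), Lgmn (-1.77), Ctss (-1.06), Gbp7 (-0.9955) and Cd86 (-0.74) remained called, with adjusted p of 0.0026 or less. These falls moved with those of the macrophage markers (7 of 8 also without the 2 arrays), of 6 of 7 mesenchymal markers (median -1.38, 4 of 7 without the 2 arrays) and of 3 of 4 endothelial markers (median -0.69), whose part in them was not tested.

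In adult organoids from day 3 to day 30, 0 of 6 members were called in limma, 2 had an unadjusted p under 0.05, and 0.0261% of all genes were called higher and 0.0228% lower. All 6 differences were below 0. H2-Ab1 differed by -0.67 ± 0.21 (95% interval -1.09 to -0.24, adjusted p 0.32), with no overlap, although day 3 array 4 and day 30 array 3 both read 6.06. H2-Aa differed by -0.43 ± 0.22 and H2-Eb1 by -0.40 ± 0.19. Day 3 arrays 1 and 3 held the higher levels of the members, so leaving them out had to move these differences upward. Without them H2-Ab1 differed by -0.21, H2-Aa by -0.10, H2-Eb1 by -0.0788 and H2-DMa by 0.08. The fetal and adult changes over culture did not differ by a called amount for any of the 6 (0 at an unadjusted p under 0.05), with 1.02% of all genes called higher and 1.97% lower and the largest difference 0.60 ± 0.29 for H2-Ab1 (adjusted p 0.37). For H2-Ab1 it was 0.47 without fetal day 3 arrays 2 and 3 and 0.14 without adult day 3 arrays 1 and 3, with 0 members called either way. Leaving out these adult arrays had to lower this difference as well. The pathway lists, other chains included, had 0 called genes in adult organoids over that time.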

How the data were processed

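Expression values were deposited by the authors as log2 RMA values from Affymetrix Expression Console, per the submitters' processing notes. RMA corrects background, quantile normalizes arrays and summarises probes. Tool versions, genome build and the extent of joint normalization were not given in the sources used here. Per the labels, RNA was extracted with Trizol and labelled with biotin. Of 72688 probe sets 6732 were controls. Of 65956 transcript clusters 31263 named 1 gene, 1487 named several and were left out, and the rest had no symbol. RefSeq served to update 1794 older symbols. For 441 genes with several clusters the one with the highest mean was used.

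Group means over all 24 arrays were fitted in 1 model with limma 3.58.1 in R 4.3.3, which left 18 residual degrees of freedom and a prior of 4.25. Across 11 comparisons and 15 pairs of groups each gene was tested on both sides, with Benjamini-Hochberg adjustment over the 30707 genes of a comparison. The members, lists, comparisons and the rule for named genes were chosen with earlier results of these data known, so no list counts as independent support. By the rule, named genes were the members, genes of the pathway and marker lists, and the 8 genes whose group means were most like the members', without provisional names. List genes without a probe set naming them alone were left out. In simulated data for adult minus P0 intestine limma recovered 93 of 100 genes shifted by 1 and 64 of 100 shifted by 0.5, with 5 false calls among the other genes. The real comparison called 15% of genes higher and 12.2% lower, so its adjusted cut-off differs from the simulated one. These rates therefore do not give the power of the real comparisons.

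Alternatives were the mean of a gene's clusters, a dim filter (at least 4 arrays above their median), another prior, the compared groups alone, centred arrays, quantile normalization once more, weights per array, replicate number as a block, a threshold of 0.01, and each array left out. Leaving out pairs of arrays was added after the values were seen. Same-numbered arrays did not deviate together in every pair (correlations -0.306 to 0.295), so replicate numbers were not used as pairs. Python 3.11.15 was used for annotation, promoter windows and figures.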

Additional observations from a re-analysis of the deposited data

Results flagged for a closer look

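The gap between adult and young samples differed between tissue (adult minus P0 intestine) and day 3 organoids (adult minus E19 fetal) for all 6 measured class II genes, by limma's test of the difference between the gaps. The gap in tissue was larger by 1.44 for H2-Aa, 2.05 for H2-Ab1, 2.42 for H2-Eb1, 0.86 for H2-DMa, 2.45 for H2-DMb1 and 1.03 for Ciita, on the log2 scale. Organoid levels of H2-Aa, H2-DMb1 and Ciita lay near the negative control median, so their organoid gap may be understated. No array of any gene and group stood out as a single outlier by Dixon's test (0 of 36 groups of 4). With 4 arrays this test can show only a lone array far from the rest. It could not show a pair standing apart, such as adult day 3 organoid arrays 1 and 3.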

How the results depend on the processing

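Of 1350 recomputed member values 1301 kept their direction and their side of the threshold, and of 450 recomputed counts of called members 439 stayed within 1.5 times. All 6 members stayed higher in adult than P0 intestine under every alternative. With the replicate block the counts of called members were the same in all 11 comparisons, for example 6 higher for adult minus P0 intestine. The dim filter kept 16969 genes.

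Between adult and fetal day 3 organoids 2 members were higher. The count was 1 at an adjusted p under 0.01, 0 to 3 with each array left out in turn, 0 without fetal arrays 2 and 3 and 0 without adult arrays 1 and 3. There Ciita was called with centred arrays (0.22), a second quantile normalization (0.22) and array weights (0.23), and H2-DMa was not with the second normalization (0.37). Without adult arrays 1 and 3, whose removal had to lower the difference, H2-Aa turned to -0.0864 and H2-Eb1 to -0.0086. For fetal day 3 organoids against P0 intestine 3 were lower, and 1 without fetal arrays 2 and 3. There H2-DMb1 was called when only the compared groups were fitted (-0.48, adjusted p 0.00075). For day 30 against day 3 of fetal organoids the count of higher members was 0 to 1 with each array left out.

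The other reversals were all of uncalled differences near 0. In fetal culture H2-Ab1 was 0.0175 with centred arrays, and Ciita 0.0778 with centred arrays, 0.0761 with quantile normalization and 0.0339 with weights. In adult culture H2-DMa was 0.0341 with weights and 0.0837 without day 3 arrays 1 and 3. The difference between these changes was -0.19 for H2-Aa, -0.05 for H2-Eb1 and -0.0663 for H2-DMb1 without adult day 3 arrays 1 and 3. For fetal day 3 organoids minus P0 intestine H2-DMa was -0.0726 with centred arrays, -0.0563 with quantile normalization and -0.0515 with weights, and Ciita 0.0437 without fetal arrays 2 and 3. With each array left out, Ciita ranged from -0.0736 to 0.059 in fetal culture, H2-DMa from -0.11 to 0.10 in adult culture, and H2-DMa from -0.0891 to 0.23 and H2-Eb1 from -0.0061 to 0.0755 for adult minus fetal organoids at day 30. For fetal day 3 organoids minus P0 intestine H2-DMa ranged from -0.0368 to 0.0634 and Ciita from -0.12 to 0.011. The cause was not tested. Signal near the negative control median limits H2-Aa in organoids, and H2-DMb1 and Ciita in organoids and at P0.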

Other observations

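Other genes followed a group pattern like that of the members. Likeness was the root mean square difference, in log2 units, between a gene's 6 centred group means and the mean of the 6 members. It was computed over all 30707 genes, and genes with provisional names were left out before the 8 were taken. The 8 most alike genes outside the set were an immunoglobulin kappa variable segment (0.16), Cd7 (0.16), a surface protein of T and natural killer cells, Sult2b1 (0.17), a sterol sulfotransferase, Slc2a7 (0.18), a sugar transporter, Gpr160 (0.20), Pepd (0.20), a dipeptidase, Zbp1 (0.20), a nucleic acid sensor, and Cyp27a1 (0.20), a sterol hydroxylase. All 8 had their highest mean in adult intestine, as the choice by likeness requires. Among the members themselves the values ran from 0.15 for H2-Aa to 0.61 for H2-DMa. H2-Aa ranked 2 among all genes, H2-DMb1 26, H2-Eb1 61, Ciita 289, H2-Ab1 400 and H2-DMa 549. Many genes outside the set were thus closer to the members' mean than most members were.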
